A study of Mus musculus with 12 samples.

Results

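The genes described here encode the synaptic vesicle and its exocytosis machinery, and 38 of them were chosen by name. All 38 had at least 1 probe set on the array, with 95 probe sets in total, and each gene was read from its kept probe set with the highest mean signal. Of the 38 genes, 35 passed the filter on low signals, among 12845 genes that passed it and 18193 genes with a symbol on the array. Syt6, Sv2c and Doc2b did not pass. Of the 35, 28 had a signal above the filter level of 107, the median of all values, on all 12 arrays, and Cadps2 passed only through its R- arrays.

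The cells came from the neural tube of E12.5 mouse embryos, and all groups carried the ePet-EYFP transgene, whose yellow fluorescent protein (YFP) is driven in serotonin neurons by a Pet-1 enhancer. Tissue between the mesencephalic and pontine flexures made up the rostral domain, and tissue between the pontine flexure and the spinal cord the caudal domain. Cells were dissociated with trypsin and sorted by YFP into R+ and C+, the serotonin neurons of the rostral and caudal domain, and R- and C-, the YFP-negative cells of the same domains. Each of the 4 groups had 3 arrays, each made from 200000 sorted cells by a single round of amplification. The labels call the negative groups neurons, but they were sorted only on the absence of YFP. Replicates are labelled as biological, with no litter named, so the p-values reflect only how much these samples varied, which may be technical.

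A neuron releases transmitter when a vesicle that has been docked and primed at the active zone fuses with the plasma membrane. Fusion is driven by SNARE proteins on the vesicle (synaptobrevins, the Vamp genes) and on the plasma membrane (syntaxin and SNAP-25), is held in check by complexins, and is triggered by calcium sensors, chiefly synaptotagmins. Serotonin neurons of the hindbrain begin to extend axons around this stage, and they store serotonin in both small clear and large dense-core vesicles.

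The YFP-positive arrays carried markers of serotonin neurons, the cell type that their labels name. All 10 listed serotonin neuron genes, among them Tph2 and Slc6a4, were higher in both YFP-positive groups, and their summed signal was 83196 to 90860 in R+ against 4901 to 5302 in R-, and 55965 to 61505 in C+ against 2404 to 3435 in C-. The summed signal of 16 general neuron genes overlapped, at 178332 to 223890 in R+, 158767 to 212133 in R-, 158949 to 206562 in C+ and 178526 to 213419 in C-. In both domains 1 of these 16 was higher in YFP-positive cells (Elavl4) and 3 were lower (Nefl, Nefm and Rbfox3). With the replicate block 6 were higher in R+ (Stmn2, Stmn3, Elavl2, Elavl4, Mapt and Gap43) and 3 in C+ (Elavl4, Mapt and Gap43), with the same 3 lower. Several marker lists of other cells were higher in YFP-negative cells. The 10 progenitor genes summed to 58592 to 67901 in R- against 21275 to 23926 in R+, and to 56514 to 59383 in C- against 23918 to 29833 in C+, with all 10 higher in R- and 8 in C-. Of 7 measured cycling-cell genes 6 were higher in R- and in C-, as were all 4 measured red blood cell genes. Of the GABA and glycine neuron genes 4 of 4 were higher in R- and 3 of 4 in C-. Slc17a6, the 1 measured glutamate neuron gene, was also higher in R- (mean 1673 against 143 in R+) and in C- (2139 against 179 in C+). In both domains the same held for Isl1, 1 of 2 measured cholinergic and motor neuron genes. It also held for Th, 1 of 4 catecholamine neuron genes. Against this, the macrophage gene Lyz2 was higher in R+ (1577, 414 and 333, against 167, 75 and 81 in R-). The mesenchyme gene Dcn was higher in C+ (mean 2345 against 417 in C-). Other genes of these lists did not follow. Of 5 macrophage genes, Lyz2 was the only 1 called between R+ and R-, and Csf1r was lower in C+ than in C-. Of 5 measured mesenchyme genes, 3 were lower in R+ (Col1a1, Col3a1 and Pdgfrb) and 3 in C+ (Col1a2, Col3a1 and Pdgfrb). The part of this mixture in the results below was not tested, and in sorted bulk samples fewer cells of a type and less RNA per cell cannot be told apart.

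Syt1, the calcium sensor of fast synchronous release, had the largest difference between YFP-positive and YFP-negative cells among the 35 measured genes in the rostral domain. Its signal was 13033, 14520 and 12473 in R+ and 2185, 2830 and 2723 in R-. In the caudal domain it was 9852, 11855 and 12243 in C+ and 2899, 3593 and 3008 in C-. All YFP-positive arrays thus lay far above all YFP-negative arrays in both domains. Differences are given throughout on the scale of log2(signal + 10), with the standard error of the limma fit and a p-value adjusted over all 12845 genes, and folds are of signal + 10. Syt1 was higher by 2.37 ± 0.14 in R+ (5.18-fold, adjusted p = 4.64e-08) and by 1.83 ± 0.14 in C+ (3.57-fold, adjusted p = 3.73e-07).

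The other genes with this pattern in both domains were a vesicle membrane protein, a synapsin and the 2 plasma membrane SNAREs. Sv2b, a transporter-like glycoprotein of the vesicle membrane, had signals of 627, 838 and 682 in R+ and of 171, 217 and 132 in R-. It had 1050, 1059 and 1305 in C+ and 240, 316 and 420 in C-. The groups did not overlap in either domain, and the difference was 2.00 ± 0.23 in the rostral domain (4.00-fold, adjusted p = 2.65e-05) and 1.80 ± 0.23 in the caudal domain (3.49-fold, adjusted p = 6.26e-05). Stx1a, the syntaxin of the plasma membrane SNARE complex, had 2967, 3325 and 2707 in R+ and 1207, 1291 and 1194 in R-. Its caudal signals were 3980, 3721 and 3172 in C+ and 1461, 1560 and 1449 in C-. It was higher by 1.27 ± 0.13 in R+ (adjusted p = 9.44e-06) and by 1.27 ± 0.13 in C+ (adjusted p = 7.83e-06), with no overlap. The Stx1a probe set used is of a type that can also detect related transcripts, and its other kept probe set gave 1.00 ± 0.36 and 0.66 ± 0.36, which did not pass when it was used instead (adjusted p = 0.0842 and 0.274).

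Syn1, which tethers vesicles to the reserve pool, had 942, 672 and 857 in R+ against 457, 509 and 452 in R-. In C+ it had 976, 950 and 986, against 534, 422 and 699 in C-. Within each domain the YFP-positive arrays were all above the negative ones, by 0.78 ± 0.19 in the rostral domain (adjusted p = 0.0124) and 0.83 ± 0.19 in the caudal domain (adjusted p = 0.0074). The rostral call was lost without R+ replicate 1 (adjusted p = 0.0624) or without R- replicate 3 (0.0539). Snap25, the plasma membrane partner of syntaxin, had 1897, 1657 and 1715 in R+ and 1170, 1248 and 1093 in R-. Its signals were 2392, 2564 and 2845 in C+ and 1830, 1998 and 1784 in C-. It differed less than the others, by 0.58 ± 0.13 (adjusted p = 0.00644) and 0.47 ± 0.13 (adjusted p = 0.0227), with no overlap in either domain. The caudal call was lost on leaving out C+ replicate 2 or 3 or C- replicate 1 or 3 (adjusted p from 0.0704 to 0.0991).

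**Figure D1:**
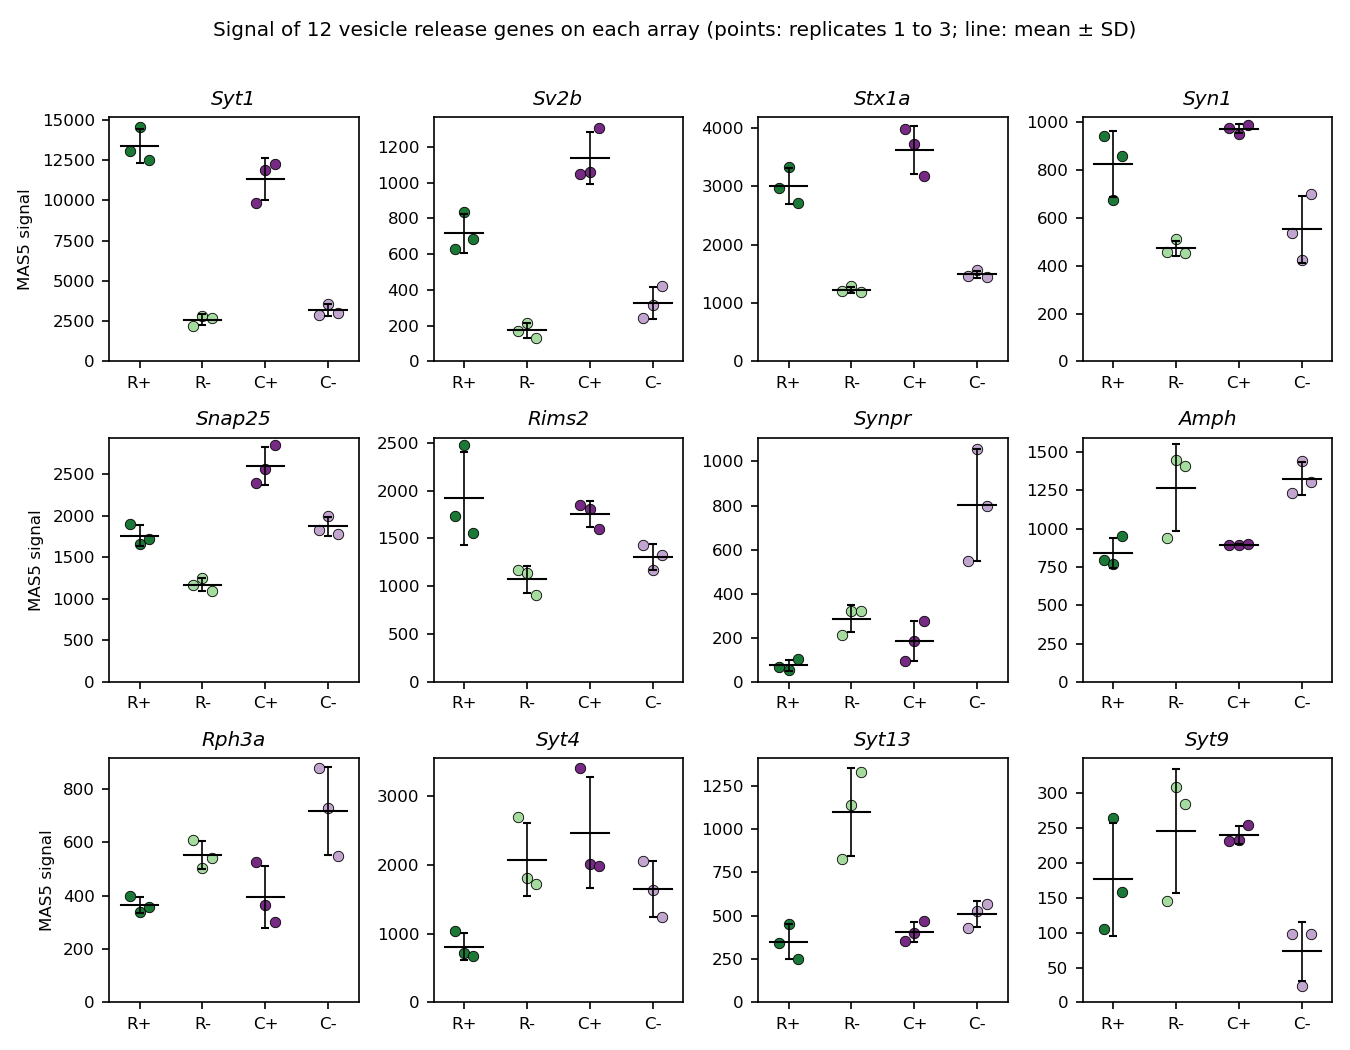
Signal on each array for genes of the release machinery, 12 genes in 4 groups, on linear axes that start at 0; points are the 3 arrays of each group and lines are their mean with the SD. Syt1, Sv2b and Stx1a are higher in R+ and C+ than in R- and C- on every array, Synpr is lower on every array within each domain, and Syt4 is lowest in R+.

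Synpr and Amph went the other way in both domains. Synpr encodes synaptoporin, a vesicle membrane protein related to synaptophysin, and had signals of 68, 54 and 102 in R+ against 215, 321 and 323 in R-. In the caudal domain it had 93, 187 and 277 in C+ against 548, 1056 and 799 in C-. Within each domain the YFP-negative arrays were all above the YFP-positive ones, and the differences were -1.82 ± 0.36 (adjusted p = 0.0033) and -2.12 ± 0.36 (adjusted p = 0.000942). Amph encodes amphiphysin, which acts in vesicle retrieval, and had 798, 767 and 953 in R+ and 940, 1450 and 1409 in R-. It had 891, 893 and 900 in C+ and 1232, 1442 and 1303 in C-. R+ and R- overlapped by 1 array while C+ and C- did not overlap, and the differences of -0.57 ± 0.17 (adjusted p = 0.0415) and -0.56 ± 0.17 (adjusted p = 0.0428) were near the threshold. The rostral call was lost on leaving out any 1 of 8 of the 12 arrays (adjusted p from 0.0506 to 0.182) and the caudal one on leaving out any 1 of 10 (0.0503 to 0.133).

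The 250 bases before the first listed start of transcription are shown for the genes that passed in the same direction in both domains and matched the RefSeq promoter table of GRCm38.p6, in which 29 of the 38 genes had an entry. The capitals mark matches, on either strand, to 6 motifs searched: the GC box GGGCGG, the TATA motif TATAAA, the GATA motif AGATAA, the ETS motif CCGGAA, the cyclic AMP response element TGACGTCA and TTCAGCACC, the first part of the RE1 element bound by the repressor REST. Each is written 5′ to 3′ on the strand of its gene.
Syt1, chr10:109010976-109011225, minus strand: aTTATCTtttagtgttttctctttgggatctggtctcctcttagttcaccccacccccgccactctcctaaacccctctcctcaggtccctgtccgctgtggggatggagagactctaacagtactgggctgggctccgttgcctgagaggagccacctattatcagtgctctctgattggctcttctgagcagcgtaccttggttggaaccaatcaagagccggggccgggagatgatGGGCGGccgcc
Sv2b, chr7:75309263-75309512, minus strand: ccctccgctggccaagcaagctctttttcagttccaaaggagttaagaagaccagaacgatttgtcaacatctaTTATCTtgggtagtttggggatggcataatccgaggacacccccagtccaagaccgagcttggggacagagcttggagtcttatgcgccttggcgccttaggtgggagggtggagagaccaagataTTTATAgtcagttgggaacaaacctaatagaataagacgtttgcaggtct
Stx1a, chr5:135023232-135023481, plus strand: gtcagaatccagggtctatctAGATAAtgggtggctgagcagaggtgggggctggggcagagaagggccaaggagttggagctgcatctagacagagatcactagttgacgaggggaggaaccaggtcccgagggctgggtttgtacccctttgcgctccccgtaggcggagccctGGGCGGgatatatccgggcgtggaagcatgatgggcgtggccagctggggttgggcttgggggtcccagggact
Syn1, chrX:20920919-20921168, minus strand: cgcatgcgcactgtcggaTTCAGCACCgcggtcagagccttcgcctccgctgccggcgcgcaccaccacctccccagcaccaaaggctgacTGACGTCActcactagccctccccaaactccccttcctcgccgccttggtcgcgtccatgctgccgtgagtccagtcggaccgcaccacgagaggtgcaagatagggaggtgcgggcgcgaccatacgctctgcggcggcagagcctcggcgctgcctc
Synpr, chr14:13284530-13284779, plus strand: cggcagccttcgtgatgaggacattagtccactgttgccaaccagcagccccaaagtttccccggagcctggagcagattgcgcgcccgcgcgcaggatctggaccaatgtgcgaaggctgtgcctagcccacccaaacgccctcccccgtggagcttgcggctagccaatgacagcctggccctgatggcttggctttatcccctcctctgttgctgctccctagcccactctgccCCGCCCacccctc
Amph, chr13:18948101-18948350, plus strand: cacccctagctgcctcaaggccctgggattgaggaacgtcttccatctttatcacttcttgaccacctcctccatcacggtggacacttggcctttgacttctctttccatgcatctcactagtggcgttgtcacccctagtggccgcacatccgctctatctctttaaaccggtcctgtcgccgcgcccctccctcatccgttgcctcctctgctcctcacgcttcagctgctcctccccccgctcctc
The first 4 are of genes higher in YFP-positive cells and the last 2 of genes lower there. Syn1 alone held the RE1 part, 232 bases before its start, and the cyclic AMP response element, 159 bases before it. Of all 32851 promoters of the same length, 0.301% held the first and 1.55% the second, and of the 29 matched genes only Syn1 held either. The GATA motif was found in Syt1, Sv2b and Stx1a, 249, 176 and 229 bases before the start, and in Rph3a and Dnm1, or 5 of 29, against 9.99% of all promoters. The GC box was in 20 of 29 against 32.7% of all promoters, the TATA motif in 2 of 29 against 12.4%, and the ETS motif in 1 of 29 against 3952 of the 32851. No motif was found in the Amph window. These are matches of letters, with no measurement of binding.

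Among the other synaptotagmins, Syt4 and Syt13 were lower in R+ than in R-, and Syt9 was higher in C+ than in C-. Syt4 encodes a synaptotagmin that does not bind calcium in the usual way and sits on dense-core vesicles. Its signal was 1038, 714 and 677 in R+, 2694, 1814 and 1721 in R-, 3405, 2015 and 1985 in C+, and 2052, 1639 and 1242 in C-. R+ lay below every other group, and C+ overlapped R- and C-. R+ was lower than R- by -1.34 ± 0.25 (adjusted p = 0.00228), while C+ against C- was 0.57 ± 0.25 (adjusted p = 0.186). Syt13, a synaptotagmin that lacks the calcium-binding residues, had 345, 454 and 252 in R+, 829, 1135 and 1330 in R-, 353, 399 and 470 in C+, and 426, 529 and 570 in C-. R- stood above all other groups, and the difference between R+ and R- was -1.63 ± 0.23 (adjusted p = 0.000201), against -0.31 ± 0.23 in the caudal domain (adjusted p = 0.465).

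Syt9, another fast calcium sensor, had 106, 265 and 159 in R+, 145, 309 and 284 in R-, 232, 233 and 255 in C+, and 98, 24 and 98 in C-. Only C- stood apart, below the filter level of 107 on its 3 arrays, and C+ was higher than C- by 1.77 ± 0.45 (adjusted p = 0.0169), against -0.48 ± 0.45 in the rostral domain (adjusted p = 0.621). The caudal call was lost without C+ replicate 2 (adjusted p = 0.0505), C- replicate 2 (0.0617) or C+ replicate 3 (0.0527). Rph3a, a Rab3 effector with calcium-binding domains, had 398, 338 and 359 in R+ and 607, 504 and 543 in R-. It had 525, 364 and 300 in C+ and 879, 728 and 549 in C-. The negative arrays were above the positive ones in both domains, but only the caudal difference passed, at -0.85 ± 0.22 (adjusted p = 0.0167) against -0.58 ± 0.22 (adjusted p = 0.109). It was lost without C- replicate 1, C+ replicate 2, C- replicate 2 or C+ replicate 3 (adjusted p from 0.0519 to 0.0832). Syt2, Syt5, Syt7 and Syt11 did not pass in any of the 5 comparisons. Syt11 had 7610 to 9878 over all 12 arrays, with a rostral difference of 0.08 with a 95% interval from -0.16 to 0.31.

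Besides Sv2b and Synpr, the other measured vesicle membrane proteins were Syp and Sv2a, and neither passed. Syp encodes synaptophysin, a widely used marker of synaptic vesicles, and had 1084, 606 and 865 in R+, 821, 595 and 479 in R-, 1348, 648 and 491 in C+, and 413, 761 and 515 in C-. The groups overlapped in both domains, with differences of 0.42 ± 0.34 and 0.46 ± 0.34 (adjusted p = 0.542 and 0.461). Sv2a, a paralogue of Sv2b, had 1627, 1158 and 1060 in R+ and 971, 556 and 790 in R-, which did not overlap, and a difference of 0.73 ± 0.37 that did not pass (adjusted p = 0.254). In the caudal domain Sv2a was 1552, 510 and 539 in C+ and 956, 548 and 999 in C-. Neither Syn2 nor Syn3 passed in a YFP comparison. A second Syn2 probe set was higher in C+ by 0.74 ± 0.20 (adjusted p = 0.0345), the single call among 158 values from other probe sets of genes and comparisons that did not pass.

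Among the genes chosen by name, the vesicle SNAREs and those that control or recycle SNARE complexes did not pass in either domain. Vamp2, the main vesicle SNARE, had 1561, 1461 and 1239 in R+ and 1250, 1172 and 1054 in R-, with a difference of 0.29 ± 0.19 (adjusted p = 0.425). Its caudal signals were 2164, 1540 and 1558 in C+ and 2069, 1247 and 1678 in C-, with a difference of 0.09 ± 0.19 (adjusted p = 0.841). For Vamp2, positive and negative arrays overlapped in both domains. Vamp1 was dim, at 22 to 230 over all arrays. It had 107, 22 and 94 in R+ and 130, 117 and 116 in R-. Its caudal signals were 103, 78 and 29 in C+ and 121, 129 and 230 in C-. Positive arrays lay below negative ones in both domains, by -0.84 ± 0.53 (adjusted p = 0.397) and -1.16 ± 0.53 (adjusted p = 0.195), without passing. The complexins Cplx1 and Cplx2, which clamp SNARE complexes, had 1552 to 3137 and 1023 to 2097, and Napb and Nsf, which take SNARE complexes apart, 1171 to 2289 and 1632 to 2802. Their rostral differences lay between 0.04 and 0.29. In the caudal domain, Cplx1 gave -0.41 ± 0.18, Cplx2 0.42 ± 0.16 and Napb 0.47 ± 0.17, none passing (adjusted p = 0.172, 0.0981 and 0.0977).

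Among the Rab3 and priming genes, Rims2, Cadps2 and Unc13c passed in 1 domain each. Rims2, an active zone scaffold that binds Rab3 and calcium channels, had 1731, 2472 and 1556 in R+ and 1168, 1137 and 910 in R-. Its caudal signals were 1852, 1810 and 1599 in C+ and 1436, 1166 and 1325 in C-. The groups did not overlap in either domain, with differences of 0.81 ± 0.18 (adjusted p = 0.00596) and 0.42 ± 0.18 (adjusted p = 0.15). Cadps2, a priming factor for dense-core vesicles, was dim and met the filter only through R-, the group where it was highest; with no filter its rostral adjusted p was 0.0299. It had 47, 58 and 46 in R+, 171, 197 and 113 in R-, 78, 79 and 38 in C+, and 161, 124 and 101 in C-. Negative arrays were above positive ones in both domains, by differences of -1.47 ± 0.40 (adjusted p = 0.0237) and -0.92 ± 0.40 (adjusted p = 0.166), and the rostral call was lost without R+ replicate 1, R+ replicate 3, R- replicate 1 or R- replicate 2 (adjusted p from 0.065 to 0.11).

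Unc13c, a priming factor of the Munc13 family, had 98, 134 and 166 in R+, 307, 222 and 201 in R-, 37, 101 and 76 in C+, and 169, 147 and 181 in C-. It was also lower in YFP-positive cells with no overlap in both domains, at -0.83 ± 0.35 (adjusted p = 0.157) and -1.19 ± 0.35 (adjusted p = 0.0346). The caudal call was lost without C+ replicate 1, C+ replicate 3 or any 1 of the C- arrays (adjusted p from 0.0556 to 0.11). Its paralogue Unc13a had 249 to 283 in R+, 226 to 248 in R-, 201 to 294 in C+ and 234 to 463 in C-, and did not pass. The Rab3 vesicle GTPases did not pass either without the block. Rab3a had 7709, 9303 and 8941 in R+ and 5490, 7304 and 7635 in R-, which did not overlap, with a difference of 0.36 ± 0.21 (adjusted p = 0.345). The Rab3a probe set used is, as for Stx1a, of a type that can also detect related transcripts. On its other kept probe set R+ (2082, 1731 and 2135) and R- (1908, 1377 and 1801) overlapped. Rims1, Cadps, Rab3b and Rab3c overlapped between the YFP groups in both domains. Dnm1, the dynamin of vesicle retrieval, gave 0.04 ± 0.15 and 0.17 ± 0.15 between YFP-positive and YFP-negative cells.

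Counted together, 6 of the 35 genes were higher in R+ than in R- and 5 were lower, while 4.45% and 7.88% of all genes tested were called in those directions. Among the 5 lower genes was Cadps2, which met the filter only through R-. In the caudal domain 6 were higher in C+ and 4 lower, against 5.78% and 7.38% of all genes. The caudal count of 10 was 6 without C+ replicate 2 and 5 without C+ replicate 3. With each array scaled to 1 median the caudal counts were 6 higher and 2 lower, and 53.5% rather than 43.9% of all calls were higher. Groups did not overlap for 10 genes higher and 7 lower in R+, against 12.2% and 16.2% of all genes, and for 10 higher and 6 lower in C+, against 12.3% and 14.9%. The median difference of the 35 was 0.14 in the rostral domain and 0.15 in the caudal domain, against -0.01 and -0.03 over all genes. The genes that passed in the same direction in both domains were Syt1, Syn1, Sv2b, Snap25 and Stx1a, or 83.3% of the higher calls of each domain, and Synpr and Amph, or 40% of the rostral and 50% of the caudal lower calls. Of all genes, 61.4% of the rostral and 47.3% of the caudal higher calls were shared, and 61.1% and 65.2% of the lower ones. These YFP comparisons share no array, although 1 estimate of the spread was made over all groups. Same-numbered arrays of different groups also correlated, at 0.118 to 0.52 after subtracting each group's mean. Independence of these comparisons was not tested.

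**Figure D2:**
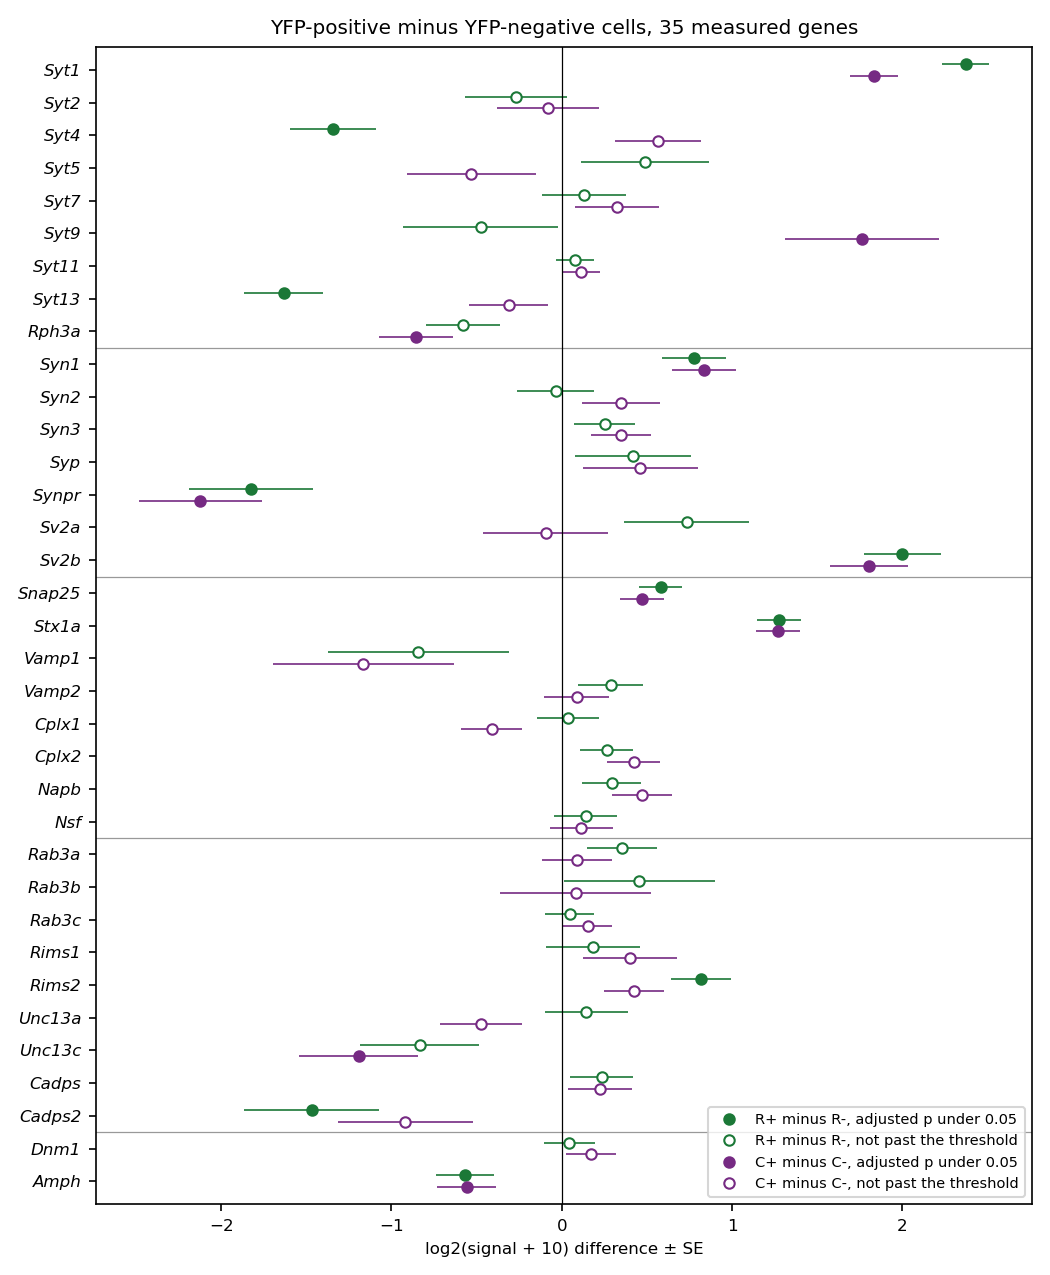
Differences on the scale of log2(signal + 10) between YFP-positive and YFP-negative cells for the 35 measured genes, grouped by role, with the standard error as bars and filled points where the adjusted p was under 0.05. Syt1 (2.37 and 1.83) and Sv2b (2.00 and 1.80) lie farthest to the right in both domains and Synpr (-1.82 and -2.12) farthest to the left.

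Arrays with the same replicate number deviated together, and a fit with the replicate number as a block called more genes. With the block 8 of the 35 genes were higher and 6 lower in R+, against 8.88% and 12.4% of all genes. The added genes were Sv2a (adjusted p = 0.0321) and Rab3a (0.018), which were higher, and Rph3a (0.0168), which was lower. In C+ 10 were higher and 5 lower, against 10.8% and 12.3% of all genes, with Syt4 (adjusted p = 0.0014), Cplx2 (0.0192), Rims2 (0.0472) and Napb (0.00813) added as higher and Cplx1 (0.0318) as lower. When no filter was applied, all 38 genes were tested, and 6 were higher and 5 lower in R+, and 6 higher and 2 lower in C+. Syt6 (14 to 111), Sv2c (13 to 66) and Doc2b (10 to 126) did not pass in that fit in any comparison. Of the genes that did not pass in the filtered fit, 16 of 24 in the rostral domain and 19 of 25 in the caudal domain had a 95% interval within 2-fold either way, so that larger differences lay outside their intervals.

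Other genes of the release pathway were mostly higher in YFP-positive cells where they passed. Of 97 listed genes 80 were measured, 16 were higher and 2 lower in R+, and 15 were higher and 1 lower in C+, against the same 4.45% and 7.88%, and 5.78% and 7.38%, of all genes. Their median difference was 0.22 and 0.20, against -0.01 and -0.03 over all genes. With the replicate block 21 were higher and 3 lower in R+, against 8.88% and 12.4% of all genes. In C+ 23 were higher and 2 lower with the block, against 10.8% and 12.3%. Rimbp2, which links active zone scaffolds to calcium channels, was 2080 ± 313 (SD, n = 3) in R+ and 332 ± 31 in R-, and 1354 ± 194 in C+ and 395 ± 49 in C-. It had the largest differences, 2.60 ± 0.17 (adjusted p = 1.06e-07) and 1.75 ± 0.17 (adjusted p = 4.5e-06). Unc13b, another Munc13 priming factor, was higher by 1.15 ± 0.21 in R+ (adjusted p = 0.00186) and by 1.37 ± 0.21 in C+ (adjusted p = 0.000433), whereas its paralogue Unc13c was lower in C+. Stxbp5l, the syntaxin-binding tomosyn-2, was higher by 1.71 ± 0.28 in R+ (adjusted p = 0.000685) and by 0.97 ± 0.28 in C+ (adjusted p = 0.0321). Snap23, a SNAP-25 paralogue found in many cell types, was lower in R+ by -0.83 ± 0.25 (adjusted p = 0.0425), and the scaffold gene Lin7a was lower in C+ by -1.32 ± 0.17 (adjusted p = 8.01e-05). Altogether 11 of these genes were higher in both domains, 68.8% of the rostral and 73.3% of the caudal higher calls, and 0 were lower in both, beside the shares of 61.4% and 47.3% given above for the higher calls of all genes.

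Between the domains fewer genes passed. R+ was not higher than C+ for any of the 35 genes and was lower for 3, Syt4, Snap25 and Dnm1, while 2.71% of all genes were higher and 4.48% lower. No overlap was seen for 2 genes higher and 6 lower, against 9.91% and 15.8% of all genes. Syt4, whose signals are given above, was lower in R+ by -1.58 ± 0.25 (2.98-fold, adjusted p = 0.00157), with all R+ arrays below all C+ arrays. Snap25 was lower by -0.56 ± 0.13 (adjusted p = 0.0163), also without overlap. Dnm1 had 2933, 2777 and 2201 in R+, 3993, 3673 and 3869 in C+, 2191, 3045 and 2447 in R-, and 3677, 3126 and 3452 in C-. It was lower in R+ than in C+ by -0.55 ± 0.15 (adjusted p = 0.0384), and R- lay below C- without passing (-0.43 ± 0.15, adjusted p = 0.179). Beta-actin is probed near its 3' and its 5' end, and the 3'/5' signal ratio is a measure of RNA and amplification quality. This ratio was 3.38 ± 0.61 (SD, n = 6) on rostral and 5.77 ± 1.31 on caudal arrays, without overlap between domains. The same ratio for Gapdh overlapped, at 1.15 to 2.14 on rostral and 1.54 to 4.63 on caudal arrays. On C+ replicates 2 and 3 the Gapdh ratio was 3.36 and 4.63, against 1.60 on C+ replicate 1. With the beta-actin ratio as a covariate Syt4 still passed, and Snap25 and Dnm1 did not. Because this ratio did not overlap between the domains, that fit cannot tell RNA quality and domain apart. Snap25 was also lost without R+ replicate 2 or 3 or C+ replicate 2 or 3 (adjusted p from 0.0546 to 0.0851), and Dnm1 without any 1 of 8 arrays (0.0503 to 0.177).

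Markers of other cells also differed between the domains. The summed signal of 5 measured mesenchyme genes was 509 to 698 in R+ and 2812 to 3165 in C+, with Dcn passing and making up most of it (mean 116 and 2345), and that of 4 GABA and glycine neuron genes 659 to 830 and 2898 to 3341, with 3 of 4 passing. The part of either in the domain differences was not tested.

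The count between R+ and C+ rested on single arrays and on the block. It was 6 without C+ replicate 1, and 1 without C+ replicate 2, C+ replicate 3, R+ replicate 2 or R+ replicate 3. With the block 3 genes were higher and 7 lower, against 9.19% and 12.4% of all genes. Syt5 (adjusted p = 0.00492), Sv2a (0.0332) and Rab3b (0.00675) were the higher ones. Synpr (0.00844), Sv2b (0.0301), Syn3 (0.0374) and Rab3c (0.0262) joined the lower ones. Syt5, a calcium sensor, had 385, 319 and 369 in R+ and 314, 83 and 140 in C+, which did not overlap, and a difference of 1.15 ± 0.38 without the block (adjusted p = 0.082).

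In YFP-negative cells Syt13 was higher and Snap25 lower in the rostral domain, and 1.03% and 1.78% of all genes were called in those directions. With each array scaled to 1 median, 51.8% rather than 36.7% of all calls in this comparison were higher in R-. Syt13 differed by 1.08 ± 0.23 (adjusted p = 0.0196), with every R- array above every C- array. That call was lost without C- replicate 1, R- replicate 2, C- replicate 2 or R- replicate 3 (adjusted p from 0.0552 to 0.122). Snap25 differed by -0.67 ± 0.13 (adjusted p = 0.00827) and was lost without R- replicate 3 (adjusted p = 0.0559) and, with all arrays, under the beta-actin covariate (0.0697) and with each array scaled to 1 median (0.133) or the mean of its kept probe sets (0.111). Markers moved with this comparison too: 5 of 10 serotonin genes were higher in R-, among them Ddc (mean 1458 against 126 in C-), and Slc6a5 and Dcn were lower. The other 5 serotonin genes did not pass. With the replicate block 1 of them, Lmx1b, was lower in R- (mean 555 against 915 in C-). The part of these markers in the comparison was not tested. The count of calls in this comparison was 0 without R- replicate 3 and 1 without C- replicate 2. Groups did not overlap for 4 genes higher and 7 lower, against 8.23% and 10.8% of all genes. With the block 2 were higher and 4 lower, against 4.49% and 5.82% of all genes, with Syt9 (adjusted p = 0.0215) added as higher and Synpr (0.00365), Sv2b (0.0146) and Vamp2 (0.0311) as lower. The difference of Synpr between R- and C- was -1.43 ± 0.36 without the block (adjusted p = 0.0508), and its 3 R- arrays lay below its 3 C- arrays.

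**Figure D3:**
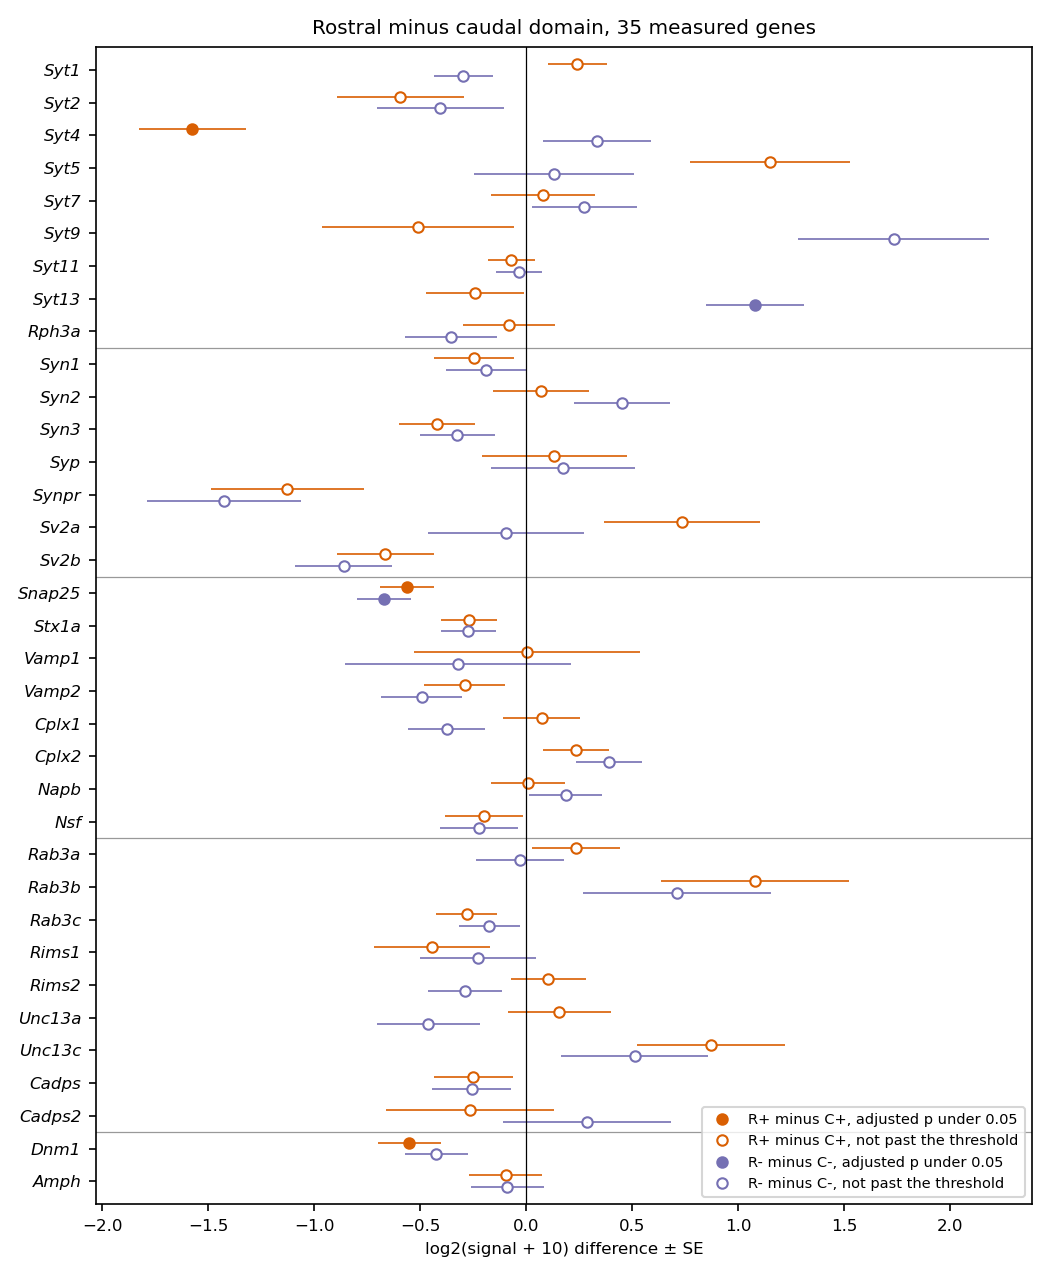
Differences on the scale of log2(signal + 10) between the rostral and the caudal domain in YFP-positive (R+ minus C+) and YFP-negative cells (R- minus C-) for the 35 measured genes, with the standard error as bars and filled points where the adjusted p was under 0.05. Filled points are Syt4, Snap25 and Dnm1 in YFP-positive cells and Syt13 and Snap25 in YFP-negative cells.

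The YFP difference itself was compared between the domains with an interaction term that uses all 12 arrays and therefore shares them with each comparison above. Syt4 alone passed among the 35 genes, in the direction of a lower rostral difference, which 0.677% of all genes shared, and 0 passed in the other direction, against 0.467%. The rostral minus the caudal difference of Syt4 was -1.91 ± 0.36 (adjusted p = 0.0141), and 3.19e-06 with the block. The call was lost with each array scaled to 1 median (adjusted p = 0.0527), where Syt13 passed in its place, with no trend in eBayes (0.0611) and without R+ replicate 3 (0.0526). The count was 0 without R+ replicate 3 and 2 without R+ replicate 2 or R- replicate 1. With the block Syt1 (0.54, adjusted p = 0.0408) and Syt13 (-1.32, adjusted p = 0.0171) also passed, so that 1 gene was higher and 2 lower, against 1.13% and 1.56% of all genes. Without the block their adjusted p-values were 0.419 and 0.0828. Syt9 had the widest gap between domains, -2.24 ± 0.64, and did not pass (adjusted p = 0.167). Of the 34 genes that did not pass, 20 had an interval within 2-fold either way. Lin7a was the 1 other pathway gene that passed, at 1.34 ± 0.24 (adjusted p = 0.0106).

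A second probe set can show whether a difference holds for another part of the transcript. Of the 35 genes, 20 had several kept probe sets. For the calls above there were 22 values from other probe sets, of which 19 had the same direction, 7 passed in that direction and 0 passed in the opposite one. The second Syt4 probe set gave -1.16 ± 0.29 in the rostral domain, 0.85 ± 0.29 in the caudal domain and -2.01 ± 0.40 for the difference between domains, and it passed in the first (adjusted p = 0.0222) and the last (0.0448). The second Sv2b probe set was higher by 1.43 ± 0.25 in R+ (adjusted p = 0.00248) and by 1.58 ± 0.25 in C+ (0.00107). Of the 3 other Syt1 probe sets, all were higher in YFP-positive cells of both domains, and 2 passed in the rostral domain and 0 in the caudal domain. The second Snap25 probe set gave 0.51 ± 0.39 and -0.22 ± 0.39 and passed in neither domain. With the mean over all kept probe sets of a gene, Snap25 (adjusted p = 0.116) and Rims2 (0.407) did not pass in the rostral domain. In the caudal domain that rule gave 0.13 for Snap25 (adjusted p = 0.787) and -0.60 for Unc13c (0.491), and neither passed.

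**Figure D4:**
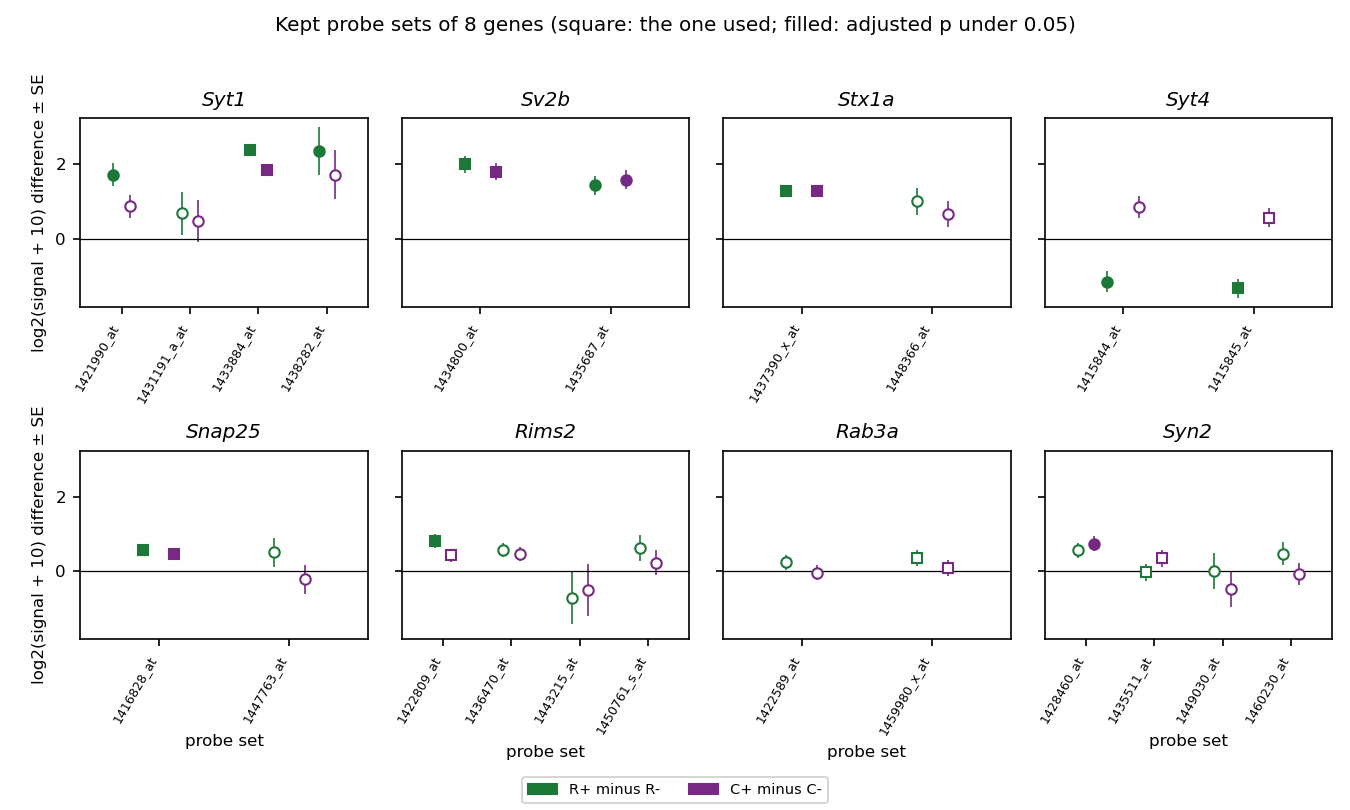
YFP difference in each domain for every kept probe set of 8 genes, on the scale of log2(signal + 10) with the standard error as bars; squares are the probe sets used and filled symbols have an adjusted p under 0.05. All probe sets of Syt1, Sv2b and Stx1a lie above 0, and both of Syt4 lie below 0 in the rostral and above 0 in the caudal domain.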

How the data were processed

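RNA from sorted cells was hybridised to 12 Affymetrix Mouse 430 2.0 arrays, 3 in each of 4 groups, and the group of each array was taken from its labels. The authors deposited intensity values made with MAS5, per the submitters' processing notes, and they are linear and whole numbers. The 2% trimmed mean was 500 on every array, which is how far the scaling between arrays can be read from the values. For MAS5 itself, its version and settings are not stated in the labels. Array medians were 93 to 121, and precision is limited by the number of arrays.

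Of 45101 probe sets 64 controls were left out, and 26061 with a signal over 107 on at least 3 arrays were kept, 22030 of them with 1 gene symbol in the platform's probe table. Each gene was read from its kept probe set with the highest mean signal. One limma 3.58.1 model (R 4.3.3) was fitted over all arrays on log2(signal + 10), with eBayes moderation with a trend, 5 contrasts, two-sided tests and Benjamini-Hochberg adjustment at 0.05 over 12845 genes in each contrast. A gene is said to pass, or to be higher or lower, where it met that threshold. On this scale the change of a dim gene comes out too small. Other probe sets were read from a fit of all kept probe sets.

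The labels number the replicates, and pairing by number was checked after subtracting each group's mean. All 18 pairs of arrays with the same number in different groups correlated over 0.1 (0.118 to 0.52), and the other 36 pairs ranged from -0.397 to 0.268. The fit with the replicate number as a block is therefore given where it changed the call of any of the 38 genes, and as counts for gene lists it moved.

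The alternatives, 26 for each gene but 25 for Cadps2, which a stricter filter left out, changed the offset, filter, scaling, probe set rule, variance model, block and beta-actin covariate, or left out an array. The genes and gene lists were chosen with earlier results of these data known, and each of the 38 genes could be named. Values on every array are given for genes that passed or define a role. Of other pathway genes, at most the 5 largest differences per direction could be named.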

Additional observations from a re-analysis of the deposited data

Results flagged for a closer look

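The difference of Syt4 between YFP-positive and YFP-negative cells differed between the domains in the interaction test. It was -1.34 ± 0.25 for rostral and 0.57 ± 0.25 for caudal cells, on the scale of log2(signal + 10), and the rostral minus the caudal difference was -1.91 ± 0.36 (limma interaction term, adjusted p = 0.0141). All 3 R+ arrays lay below all 3 R- arrays, whereas C+ and C- overlapped, although C+ was above C- in each of the 3 pairs with the same replicate number and passed with the replicate block (adjusted p = 0.0014). The interaction did not pass with each array scaled to 1 median (0.0527), with no trend in eBayes (0.0611) or without R+ replicate 3 (0.0526). A second probe set gave -2.01 ± 0.40.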

How the results depend on the processing

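Of 27 calls of single genes, 10 held under every alternative run: Syt1, Synpr and Sv2b in both YFP comparisons, Syt4 and Syt13 in R+ against R-, Syn1 in C+ against C-, and Syt4 in R+ against C+. The other 17 were lost under at least 1 alternative, and 0 reversed. The count of the 35 genes that passed was 11 in R+ against R- and 10 in C+ against C-, and 8 to 11 and 5 to 10 on leaving out each array in turn. It was 3 in R+ against C+ (1 to 6 without an array), 2 in R- against C- (0 to 3) and 1 in the difference between domains (0 to 2). With the replicate block it was 10 in R+ against C+, 6 in R- against C- and 3 in the difference between domains. In R+ against C+ it was 1 with each array scaled to 1 median, with the mean of the kept probe sets or with the beta-actin covariate. In R- against C- it was 1 with the mean of the kept probe sets and 4 with an offset of 50, and in the difference between domains it was 0 without a trend in eBayes.

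Over all genes the block moved the calls from 1584 to 2729 (R+ against R-), 1690 to 2964 (C+ against C-), 924 to 2772 (R+ against C+), 360 to 1325 (R- against C-) and 147 to 345 (difference between domains). The beta-actin covariate gave 213 in R+ against C+ and 214 in R- against C-. In R+ against C+, scaling to 1 median gave 521 and a fit of only those groups 584. Without an array the counts over all genes were 1054 to 1772, 1190 to 1849, 381 to 1665, 197 to 425 and 95 to 184, in the order above. With the block, of the 80 other pathway genes measured, 4 were higher and 13 lower in R+ against C+ (2 and 4 without it). In R- against C- these counts were 1 and 9 (1 and 2 without it). Of all genes, 9.19% were higher and 12.4% lower with the block in R+ against C+ (2.71% and 4.48% without it). In R- against C- the shares were 4.49% and 5.82% (1.03% and 1.78%). The causes were not tested. The difference between domains has no value with only the groups compared. The rule on probe sets that can detect related transcripts was an alternative added after seeing the data. In the main fit 3 of the 35 genes, Stx1a, Rab3a and Syt11, were read from such probe sets. Dim genes such as Cadps2, Unc13c, Vamp1 and Syt9 have wide errors, and 3 arrays per group limit all calls.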

Other observations

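In all 4 groups the array of replicate 1 had the highest signal for 7 of the 35 genes, Syt4, Syt5, Vamp2, Rab3b, Rab3c, Rph3a and Napb, as it did for 9.46% of all genes tested. The array of replicate 2 was highest in all groups for 0 of the 35 (5.03% of all genes) and that of replicate 3 for Syt11 (3.66%). Pclo, an active zone scaffold outside the 38 genes, was 1522 ± 250 (SD, n = 3) in R+ against 947 ± 183 in R-, and 2834 ± 305 in C+ against 1421 ± 187 in C-. It was higher in YFP-positive cells of both domains, by 0.68 ± 0.17 and 0.99 ± 0.17, and lower in R+ than in C+ by -0.90 ± 0.17 (limma, adjusted p = 0.0165, 0.00111 and 0.00604). Sncg, which encodes gamma-synuclein, was 241 ± 16 in R+ and 352 ± 91 in R-, and 1212 ± 352 in C+ and 1090 ± 119 in C-. It was lower in the rostral domain in both sorted populations, by -2.25 ± 0.22 in YFP-positive and -1.63 ± 0.22 in YFP-negative cells (limma, adjusted p = 1.42e-05 and 0.000535), and did not pass between YFP-positive and YFP-negative cells of either domain.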
